A study of Caenorhabditis elegans with 9 samples.

Results

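The 2 C. elegans strains that carried an epitope-tagged poly(A)-binding protein were pooled and set against wild-type N2 animals, which carried none, to describe which mRNAs were higher or lower after mRNA tagging whatever the state of Wnt signaling. The comparison used all 9 arrays of the series, 6 from tagged strains and 3 from N2, and all 22548 probe sets that are not array controls, of 22625 on the array. Overactivation animals were deIs10; huIs1. The transgene deIs10 holds FLAG::PAB-1 under an enhancer of bar-1, with the markers unc-30(+) and ajm-1::gfp, and huIs1 holds a β-catenin without its amino terminus (ΔNTBAR-1) under a heat shock promoter, with dpy-20(+). Underactivation animals were deIs10; deIs26, in which deIs26 expresses, from a heat shock promoter, a POP-1/TCF that cannot bind β-catenin (ΔNTPOP-1), again with dpy-20(+). Both tagged strains were built in a dpy-20(e1282) unc-30(e191) background, and deIs10 came from 1 integrated line. All animals, N2 included, were grown for 26 hr at 20° to the L2/L3 molt, given a heat shock of 30 min at 37° and allowed 1 hr of recovery. The methods describe 3 biological replicates of each strain. A difference between tagged strains and N2 therefore holds the tag, the markers, the background mutations and the presence of a heat shock transgene together, and these cannot be told apart.

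In mRNA tagging, PAB-1, which binds the poly(A) tail of mRNAs, is given a FLAG epitope in chosen cells and is then pulled down from a lysate of whole animals with its bound mRNA. The bar-1 enhancer was chosen for the seam cells, stem-like cells of the lateral epidermis that renew at each molt, and for the vulval precursor cells, the ventral epidermal cells that form the vulva. An untagged animal put through the same beads yields only RNA that sticks without the tag. The protocols in the labels speak of total RNA and the methods of coimmunoprecipitated mRNA, N2 included, and the signals do not settle which applies to N2. In bulk samples of this kind, fewer cells of a type and less RNA per cell cannot be told apart, and every array was scaled to the same distribution of signal, so the yield of a pull-down is not in the values.

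The arrays of the tagged strains were more like each other than like N2, with 1 exception. Over all probe sets, Pearson's r was 0.956 to 0.965 within overactivation, 0.969 to 0.976 within underactivation and 0.952 to 0.972 between both tagged strains. It was 0.942 to 0.960 within N2 and 0.928 to 0.973 between tagged and N2 arrays. The value of 0.973 belongs to underactivation replicate 4 and N2 replicate 4, which were closer to each other than any pair of N2 arrays. On the first principal component (32.3% of the variance) the N2 arrays lay at -51.2 to -61.1, 5 tagged arrays at 30.2 to 47.5 and underactivation replicate 4 at -13.9. Spiked-in bacterial controls were close in both groups, with BioB 3′ at 10.35 in N2 and 10.34 in the tagged strains on the log2 scale. All signals below are Robust Multichip Average (RMA) values on the log2 scale, and a difference is the mean of both tagged strains, each weighted equally, minus the N2 mean.

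At a Benjamini-Hochberg adjusted p of 0.05 in limma's moderated test, 201 probe sets were higher in the tagged strains (0.891% of those tested) and 188 were lower (0.834%). At an unadjusted p of 0.05 the counts were 1955 and 2121. All 6 tagged arrays lay above all 3 N2 arrays for 1017 probe sets (4.51%) and below them for 904 (4.01%). Of these 389 probe sets, 368 match 1 gene, 14 several and 7 none. The adjusted counts depended on single arrays. They were 0 higher and 2 lower without underactivation replicate 2, 5 and 5 without underactivation replicate 5, 12 and 23 without N2 replicate 3, 17 and 13 without overactivation replicate 3, 96 and 84 without N2 replicate 4, 163 and 118 without overactivation replicate 1, and 331 and 375 without underactivation replicate 4. Over the same 7 fits and the other 2, counts at an unadjusted p of 0.05 ran only from 1537 to 2030 higher and from 1717 to 2211 lower. Each probe set called with all arrays kept its direction in each of the 9 fits that left out 1 array, which selection from the same arrays favors. Of the 91 called genes named below, only nuaf-6 passed in all 9 of those fits, and none of their differences moved by more than 1.5 times.

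With 1 probe set per gene, the brightest that matches a single gene, 177 of 17118 genes were higher (1.03%) and 114 lower (0.666%). The median difference was 1.59 among the higher genes, 3.01-fold, with a range of 0.73 to 3.33. Among the lower genes it was -1.54, 2.91-fold lower, with a range of -0.77 to -3.47. Both strain means lay on the same side of the N2 mean for all 177 and all 114 genes, and no tagged array overlapped N2 for 172 and 111 of them. Selection on the pooled difference of the same arrays favors both, so neither is a replication across strains. Across all genes, the tagged arrays were all above N2 for 5.19% and all below for 3.31%, the tagged mean lay above the N2 mean for 57.6% and below it for 42.4%, and 9.69% were higher and 7.78% lower at an unadjusted p of 0.05. The counts of list members below read against these shares. The higher genes had a median N2 signal of 6.47 and the lower genes of 7.65, against 4.80 for all genes. Many higher genes have no name beyond that of their sequence (76 of 177, 42.9%), against 30 of 114 lower genes (26.3%) and 39.2% of all genes. Each strain against N2 by itself gave 196 higher (0.869%) and 156 lower (0.692%) probe sets for overactivation and 0 higher and 1 lower (0.00443%) for underactivation in limma, with 1468 and 1422 for underactivation at an unadjusted p of 0.05. These comparisons share the N2 arrays with each other and with the pooled one.

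The largest difference upward was that of C35C5.9, an X-linked gene of 527 bp (WBcel235 X, 11536598 to 11537124). Its signal was 7.49, 7.07 and 7.08 in N2 replicates 2, 3 and 4, 11.57, 9.83 and 11.07 in overactivation replicates 1, 3 and 4, and 9.90, 9.90 and 10.98 in underactivation replicates 2, 4 and 5, the order used for every gene below. The lowest tagged array thus lay well above the highest N2 array, and the difference was 3.33 ± 0.40 (SE, limma adjusted p = 0.0208). The next gene, spig-15, had 8.49, 6.53 and 7.61 in N2, 11.93, 10.54 and 10.87 in overactivation and 10.06, 9.70 and 11.29 in underactivation, a difference of 3.19 ± 0.52 (SE, adjusted p = 0.0281). Genes known by sequence name alone filled much of the top of the list, with Y43C5A.3 at 3.01, ZK792.7 at 2.96, ZK512.7 at 2.73, R148.7 at 2.71, F55C9.5 at 2.65, F15E6.4 at 2.63 and Y42A5A.3 at 2.48. A second probe set of ZK512.7 also passed, at 2.19. The named genes among the 15 largest were mif-4, ajm-1, col-38, slc-25A21, col-49 and rei-1. The predicted mitochondrial carrier gene slc-25A21 had 5.91, 5.81 and 7.13 in N2, 8.71, 9.33 and 9.24 in overactivation and 7.97, 8.22 and 8.61 in underactivation, a difference of 2.40 ± 0.32 (SE, adjusted p = 0.0228), with 1.06 on its second probe set (adjusted p = 0.0599). The smallest p-values among the higher genes belonged to others: F26E4.2 rose from 8.91, 9.11 and 9.35 in N2 to between 10.79 and 11.70 in the tagged arrays, and F29C6.1 from 11.68, 11.36 and 11.26 to between 12.83 and 13.23. Their differences of 2.10 and 1.66 (both adjusted p = 0.0165) held in 8 of the 9 fits that left out 1 array, and both were picked after their values were seen.

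Among the lower genes, C46F2.1 (X, 8078048 to 8080256) led, with 9.39, 9.22 and 7.57 in N2, 5.60, 5.41 and 4.87 in overactivation and 4.64, 5.43 and 5.58 in underactivation. Its difference was -3.47 ± 0.42 (SE, 11.1-fold lower, adjusted p = 0.0209). F16C3.1 followed at -3.45, and then rsks-1, the gene of the ribosomal S6 kinase that links nutrient signaling to translation, with 7.11, 7.89 and 5.95 in N2, 4.05, 3.56 and 3.01 in overactivation and 3.97, 4.74 and 3.65 in underactivation. The difference of rsks-1 was -3.16 ± 0.44 (SE, 8.91-fold lower, adjusted p = 0.0228), and its groups did not overlap. Signaling and chromatin genes in the top 15 included tax-6, the catalytic subunit of calcineurin, at -2.18, met-1, a histone H3 lysine methyltransferase, at -2.13, and arrd-26, an arrestin domain gene, at -2.19. The rest of the 15 were unc-2, F21F8.6, cbd-1, Y55B1BL.1, dig-1, C50F7.5, C03A3.2, pgal-1 and twk-13, at -2.56 to -2.18. The only gene called in all 9 fits that left out 1 array, nuaf-6, a predicted assembly factor of mitochondrial complex I, had 7.88, 8.07 and 7.96 in N2 and 5.82 to 6.38 in the tagged arrays, a difference of -1.83 ± 0.17 (SE, adjusted p = 0.0165). F54F2.6, at -1.65 (adjusted p = 0.0204), passed in 8 of the 9 fits that left out 1 array.

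**Figure D1:**
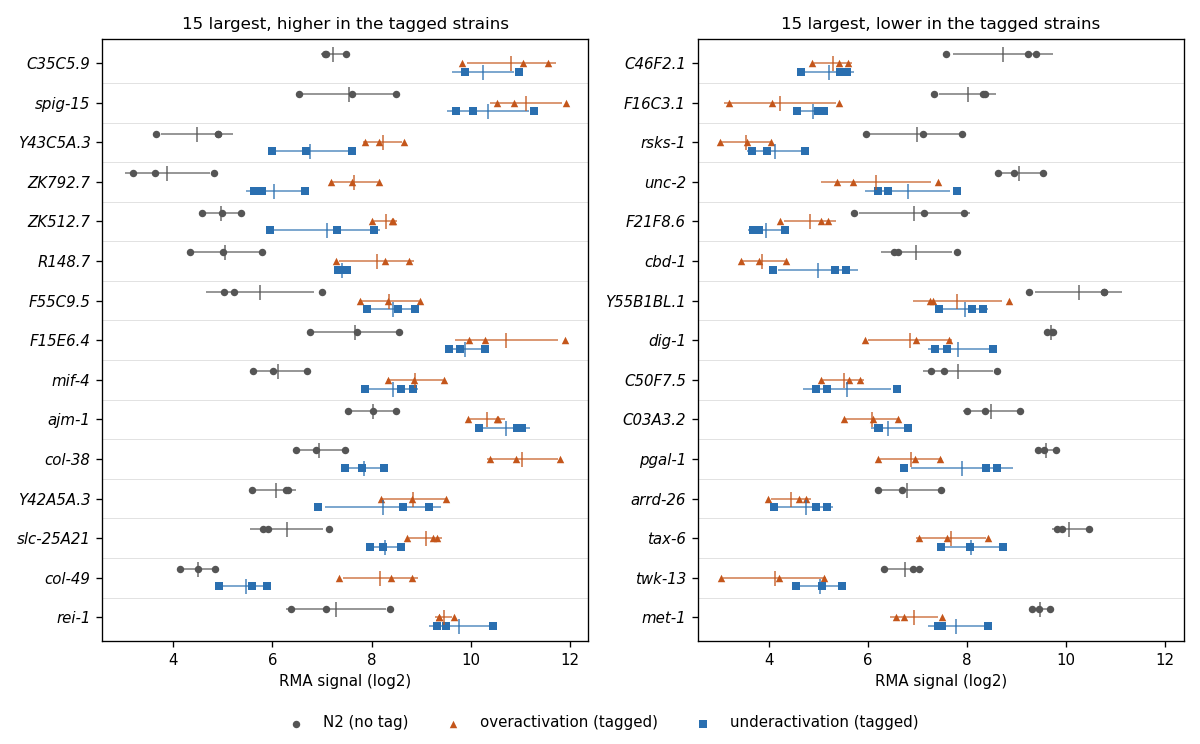
RMA signal (log2) of the 15 genes with the largest difference in each direction, among those past adjusted p 0.05 with no overlap between tagged and N2 arrays. Points are single arrays, the tick and bar are the mean and SD of 3 arrays, and in col-38 and col-49 the overactivation arrays stand apart from underactivation as well as from N2.

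The genes carried by the transgenes gave a check of the labels. The marker ajm-1, which encodes a protein of the apical junction of epithelia, was among the most enriched genes. Its brightest probe set read 8.04, 8.497 and 7.53 in N2, 10.53, 9.94 and 10.56 in overactivation and 11.03, 10.17 and 10.95 in underactivation, so all 6 tagged arrays stood above N2. The difference was 2.51 ± 0.29 (SE, 5.69-fold, adjusted p = 0.0204), passed in 7 of the 9 fits that left out 1 array, and was 2.32 in overactivation and 2.69 in underactivation. A second ajm-1 probe set passed at 2.10, while the other 4 did not and lay at 0.62, -0.03, -0.67 and -1.82. The last of these was below N2 in every tagged array, so the 6 probe sets of this gene, which spans 30674 bp, disagreed in direction.

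The other carried genes did not pass. The marker unc-30, a homeobox gene of GABA neurons, differed by 1.32 (adjusted p = 0.255) and 1.26 on its second probe set, with overlapping groups, and by 0.67 without N2 replicate 3. The marker dpy-20, needed for normal cuticle and body shape, differed by 1.73 (adjusted p = 0.0613), 2.55 in overactivation and 0.90 in underactivation. The gene of the tagged protein itself, pab-1, read 11.92, 12.29 and 12.56 in N2 and 11.53 to 12.47 in the tagged arrays, a difference of -0.20 ± 0.24 (SE, adjusted p = 0.722), and its other probe sets lay at 0.09 and -0.37. The heat shock transgene matched its strain for pop-1, which differed from N2 by 4.73 in underactivation and by -0.22 in overactivation. For bar-1, the signal was 9.04, 9.55 and 9.18 in N2, 10.002, 9.64 and 11.75 in overactivation and 9.55, 9.15 and 9.40 in underactivation. Its difference of 1.21 in overactivation rested mostly on replicate 4, without which the pooled difference went from 0.66 to 0.33, and underactivation was at 0.11. Finally, only the promoter of hsp-16.2 is carried, for ΔNTBAR-1 in huIs1 and ΔNTPOP-1 in deIs26, so this gene is no check of the labels. Its own signal differed by -0.30 (limma adjusted p = 0.806).

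**Figure D2:**
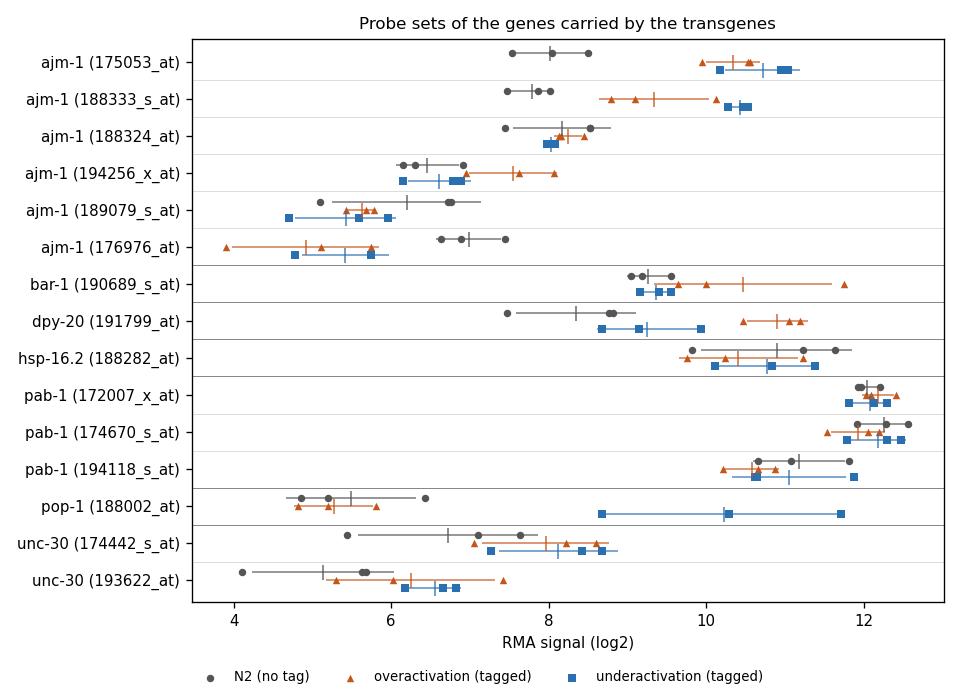
RMA signal (log2) of every single-gene probe set of 7 genes of the transgenes, by array, with the mean and SD of 3 arrays per strain. Of hsp-16.2 the transgenes hold only the promoter. The 2 upper probe sets of ajm-1 put all tagged arrays above N2, those of pab-1 overlap in all groups, and pop-1 is high in the 3 underactivation arrays only.

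None of the markers listed here for the cells in which the tag was meant to act passed. The result depends on how the lists were drawn. The paper also gives seam cell expression for che-14, nhr-23, mlt-11 and bus-8, which are in the hypodermal list below. Of these, bus-8, annotated as bus-8B, passed at 1.69 (limma adjusted p = 0.0476) and is in no count. Of 14 seam cell genes measured, 0 passed in either direction in limma, while at an unadjusted p of 0.05 there were 4 higher and 1 lower (9.69% and 7.78% of all genes). Their median difference was 0.25, against 0.06 for all genes, with 0.41 in overactivation and -0.07 in underactivation. The members ran from blmp-1, a transcriptional repressor, at -1.10 to wrt-2, a hedgehog-related gene, at 1.42 (adjusted p = 0.272). The nuclear receptor gene nhr-25, active in seam and other epidermal cells, was the only one with no overlap, at 6.80, 7.32 and 6.79 in N2, 7.63, 8.41 and 8.39 in overactivation and 7.73, 7.53 and 7.86 in underactivation (difference 0.96, adjusted p = 0.0727), but its second probe set lay at -0.70. blmp-1 also had a probe set on the other side of 0, at 0.98. The brightest markers, grd-10 and lin-29, differed by 0.63 and 0.01, and grd-10 by 0.09 without N2 replicate 4 and by 0.96 without N2 replicate 3. wrt-2 differed by 2.27 without N2 replicate 4. Without N2 replicate 2 the median of the list was 0.05.

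Of 19 vulval precursor cell genes, 0 passed in limma, against 3 higher and 2 lower without adjustment, and their median was -0.16, which was -0.05 without N2 replicate 4, -0.06 without overactivation replicate 3 and -0.26 without overactivation replicate 4. The members ranged from lip-1, a MAP kinase phosphatase, at -1.29 (adjusted p = 0.0728) to lst-4, a negative regulator of EGF receptor signaling, at 1.32 (adjusted p = 0.0599). All 6 tagged arrays lay above N2 for lst-4, though its other probe sets were at 0.86, -0.01 and -0.04. A forkhead factor of vulval fate choice, lin-31, differed by 1.18 (adjusted p = 0.0650), with 0.07 on its second probe set. The Ras gene let-60 differed by 0.02 on its brightest probe set and by -1.38 on the other.

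Genes of the epidermis at large and of its cuticle had medians above that of all genes in the tagged strains, with few calls. Of 26 hypodermal markers listed, 24 were matched by name. The listed bus-8 was not matched, and its locus, annotated as bus-8B, passed and is given below. Of the 24 matched, 0 passed (7 higher and 1 lower without adjustment in limma) and the median was 0.59. That median was 0.24 without N2 replicate 2, 0.27 without overactivation replicate 3 and 0.15 with the actin end balance, described below, as a covariate. Across arrays, the median of the list relative to the N2 mean was -0.43, 0.06 and 0.52 in N2 and 0.13 to 1.21 in the tagged arrays, so the groups overlapped. The widest members were che-14, a Dispatched-related gene of apical secretion, at 1.86 (adjusted p = 0.155), and fbn-1, a fibrillin-like matrix gene, at 1.71 (adjusted p = 0.170). The value of che-14 was 1.06 without N2 replicate 2 and that of fbn-1 was 1.06 without N2 replicate 3, and their second probe sets were at 0.91 and 0.15. Downward, the widest was the spectraplakin vab-10 at -1.46 (adjusted p = 0.0612), whose other 5 probe sets ran from -1.20 to 0.99. The matrix gene noah-1 and the collagen sqt-3, the brightest of the list, differed by 1.15 and 0.40, and sqt-3 by 0.07 without N2 replicate 2, 0.65 without N2 replicate 4, 0.67 without overactivation replicate 1 and 0.23 without overactivation replicate 3.

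Cuticle collagens, which make up most of the worm's exoskeleton and are produced in pulses before each molt, lay above N2 for all but 14 of 146 genes. Their median difference was 0.40, 0.51 in overactivation and 0.23 in underactivation, and 0.23 pooled without N2 replicate 4, and 2 passed (1.37%, against 1.03% of all genes). Per array the median was 0.09, 0.14 and -0.24 in N2, 0.32, 0.77 and 0.46 in overactivation and 0.49, 0.09 and 0.11 in underactivation, so 1 underactivation array lay below 2 of N2 and another between them. The 2 called collagens owed their difference mainly to overactivation. For col-38 the signal was 6.89, 7.47 and 6.47 in N2, 10.40, 11.81 and 10.91 in overactivation and 8.25, 7.47 and 7.81 in underactivation. Its difference was 2.50 ± 0.35 (SE, adjusted p = 0.0228), made of 4.10 in overactivation and 0.90 in underactivation. The pattern of col-49 was the same, with 3.69 and 0.98.

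Other epidermal genes were called. The ground-like gene grl-20, related to hedgehog, was the only one of 80 hedgehog-related and patched-related genes to pass, 1.25% against 1.03% of all genes, and 56 of the 80 lay above N2, against 57.6% of all genes. It read 3.98, 4.85 and 3.99 in N2, 5.44, 6.09 and 6.31 in overactivation and 6.79, 6.40 and 6.53 in underactivation, a difference of 1.98 (adjusted p = 0.0228), while its second probe set was at 0.23. bus-8B, of the locus of a glycosyltransferase that shapes the cuticle surface, differed by 1.69 (limma adjusted p = 0.0476). Its second probe set lay at -0.12. It was listed among the hypodermal markers as bus-8 but left out of their counts. After the embryo, the paper places BUS-8 in seam cells only. Picked after their values were seen, cuti-1, which acts in cuticle and epithelia, differed by 1.94 (adjusted p = 0.0373) and the α-tubulin tba-8 by 1.58 (adjusted p = 0.0268). For tba-8 the overactivation arrays (8.52, 8.65 and 8.71) lay above the underactivation arrays (7.21, 7.31 and 8.13), and N2 read 6.25 to 6.85.

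Nuclear hormone receptors, ligand-regulated transcription factors of which the worm has an expanded family, held 9 higher genes and 0 lower among 254 measured. That is 3.54% higher, against 1.03% of all genes, and without adjustment limma gave 43 higher and 10 lower (9.69% and 7.78% of all genes). The median of the family was 0.11, against 0.06 for all genes, and 0.17 without N2 replicate 3 and 0.06 without N2 replicate 4. All 9 called members separated from N2 without overlap, as did 172 of all 177 higher genes. The largest, nhr-152, read 3.99, 4.52 and 5.16 in N2, 6.77, 5.90 and 6.28 in overactivation and 7.67, 6.84 and 7.65 in underactivation, a difference of 2.30 ± 0.32 (SE, adjusted p = 0.0230). For nhr-237 the values were 5.49, 5.75 and 5.20, then 6.74, 6.82 and 7.48, then 7.97, 7.43 and 7.83, a difference of 1.90 ± 0.23 (SE, adjusted p = 0.0208) that passed in 7 of the 9 fits that left out 1 array. Both were higher in underactivation than in overactivation at an unadjusted p of 0.0185 and 0.0221. The other 7 were nhr-205 (1.86), nhr-142 (1.79), nhr-92 (1.58), nhr-212 (1.37), nhr-180 (1.27), nhr-97 (1.25) and nhr-132 (1.17), of which nhr-92 has a second probe set at -0.61. Of the 9, 7 lie on chromosome V, the seat of nhr-152 (7686350 to 7688228) and nhr-237 (1625189 to 1626820), and nhr-92 and nhr-97 on IV. Chromosome V holds 4315 of the 17077 genes with coordinates. The share of the whole receptor family on V was not counted, so no result on position follows.

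Several short genes that act in RNA processing and transcription were higher. The following groups were drawn up after the values were seen and are given as descriptions. Of the 13 Sm and LSm genes measured, whose products form rings on small nuclear RNAs and on mRNA tails, 12 lay above N2, the median was 0.89 (0.06 over all genes), the median span 688 bp and 4 passed. snr-7 led with 4.62, 4.84 and 5.06 in N2, 8.15, 6.79 and 6.74 in overactivation and 7.16, 6.57 and 6.72 in underactivation, a difference of 2.18 ± 0.32 (SE, adjusted p = 0.0268). lsm-4, lsm-1 and snr-5 differed by 1.70, 1.21 and 0.88 with no overlap. Of 19 genes of general transcription factors and RNA polymerase II subunits, 14 lay above N2, with a median of 0.68. The 4 that passed, gtf-2A2 (1.80), gtf-2E2 (1.41), rpb-12 (1.32) and gtf-2H5 (1.29), have spans of 536 to 1723 bp. The lowest of the group, at -0.74, was the second largest subunit's gene, rpb-2, with 4838 bp. Members with longer spans, gtf-2H4 (7820 bp) and gtf-2H1 (6335 bp), were at 0.11 and -0.12.

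The wider list of 46 splicing factors was split. Higher were snr-7, snr-5 and sftb-6, a small subunit of the SF3b complex, at 1.17 (adjusted p = 0.0228). Lower were prp-8, the large protein at the core of the spliceosome, and rnp-8, an RNA-binding protein for which no part in splicing is shown here. For prp-8 the values were 8.62, 7.86 and 7.62 in N2, 6.22, 5.92 and 6.28 in overactivation and 5.89, 6.71 and 6.24 in underactivation, a difference of -1.82 ± 0.26 (SE, adjusted p = 0.0247), and rnp-8 was at -1.52 (adjusted p = 0.0332). The median of the list was 0.18. The spans of the higher members were 369 to 558 bp and those of prp-8 and rnp-8 were 8338 and 4070 bp.

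Genes of other conserved pathways were also among the higher ones. Both the modifier ufm-1 and its conjugating enzyme ufc-1, which act in turn in UFM1 conjugation, were higher (1.32 and 1.57, adjusted p = 0.0413 and 0.0473), and the other 3 genes of that pathway were at 0.01, 0.02 and 1.08 and did not pass. ufm-1 and tomm-7 (1.49, adjusted p = 0.0422), a subunit of the outer mitochondrial membrane translocase, lie 101 bp apart on chromosome III. They were the only pair of genes called in the same direction within 500 bp of each other. The 4 MIF-related genes, named for macrophage migration inhibitory factor, all lay above N2, and mif-4 (2.56 ± 0.34 SE, adjusted p = 0.0228) and mif-2 (1.17) passed. mif-4 read 6.69, 5.62 and 6.01 in N2 and 7.86 to 9.47 in the tagged arrays. The partner transcription factors mml-1 and mxl-2, the worm's Mondo and Mlx, both passed (1.32 and 1.12, adjusted p = 0.0321 and 0.0320), though a second mml-1 probe set lay at -0.53. The caenacin cnc-3, an antimicrobial peptide gene of the epidermis, rose from 10.56, 10.83 and 11.22 to between 11.94 and 12.58 (1.34, adjusted p = 0.0272).

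Body wall muscle genes were lower in the tagged strains. Their median genomic span was 5357 bp, against 2185 bp over all genes. Longer genes were lower as a whole, as described below, and the part of span was not tested. Of 35 measured, 30 lay below N2, 11 had all tagged arrays below all N2 arrays, 3 passed (8.57%, against 0.666% of all genes) and 0 were higher, and without adjustment limma gave 0 higher and 18 lower (9.69% and 7.78% of all genes). The median difference was -0.52, with -0.68 in overactivation and -0.49 in underactivation. The median of the list relative to the N2 mean was 0.04, -0.03 and 0.02 in N2, -0.39, -0.99 and -0.78 in overactivation and -0.81, -0.31 and -0.51 in underactivation, with the array nearest to N2 being underactivation replicate 4. unc-68, the ryanodine receptor that releases calcium for contraction, read 10.38, 10.86 and 10.30 in N2, 7.68, 7.44 and 9.04 in overactivation and 8.42, 9.41 and 8.31 in underactivation, a difference of -2.13 ± 0.39 (SE, adjusted p = 0.0406), with its other probe sets at -0.55 and -0.01. The major muscle myosin gene unc-54 read 11.52, 11.79 and 12.14 in N2 and 9.40 to 11.28 in the tagged arrays (-1.62, adjusted p = 0.0434), and unc-98, a zinc finger protein of the sarcomere's attachment sites, differed by -1.25 (adjusted p = 0.0406). Close to the threshold was myo-3, the second myosin of the thick filament, at -1.43 (limma adjusted p = 0.0519). Its difference was -1.99 in overactivation and -0.87 in underactivation. Further off was unc-89, a giant protein of the M-line, at -2.18 (limma adjusted p = 0.0940). Tagged and N2 arrays overlapped for both genes. Of the other 4 probe sets of unc-89, one passed at -1.52 (adjusted p = 0.0327) and the rest lay at -1.14, -0.13 and -0.07.

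Genes of the basement membrane and of cell attachment, many of them made by muscle, were also lower. Their median span was 9579.5 bp. Of 18 measured, 15 lay below N2, 3 passed and 0 were higher in limma (3 higher and 10 lower without adjustment), with a median of -0.61. Per array the median was -0.02, 0.11 and -0.06 in N2 and -0.45 to -0.69 in the tagged arrays, the widest gap of any marker list. dig-1, a giant matrix protein of 48457 bp on chromosome III, read 9.61, 9.74 and 9.71 in N2, 7.63, 5.95 and 6.97 in overactivation and 7.60, 8.53 and 7.35 in underactivation, a difference of -2.35 ± 0.38 (SE, adjusted p = 0.0280), while a second probe set differed by -0.77. The hemicentin gene him-4 read 5.76, 5.67 and 5.55 in N2 and 2.38 to 4.70 in the tagged arrays (-2.08, adjusted p = 0.0228). The laminin α gene epi-1 read 10.74, 11.23 and 11.01 in N2 and 9.31 to 10.44 in the tagged arrays (adjusted p = 0.0456). let-2, a type IV collagen, was at -2.23 with overlapping groups (adjusted p = 0.0579), and pxn-1, a peroxidasin outside the list, at -1.46 (adjusted p = 0.0272) with a second probe set at 0.33.

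Neuronal genes were lower where they were called. The listed neuron markers had a median span of 4938.5 bp. Of 34 neuron markers, 25 lay below N2 and 1 passed, with a median of -0.27 (-0.41 without N2 replicate 4) and array medians of 0.04, -0.04 and -0.11 in N2 and -0.25 to -0.43 in the tagged strains. The called marker was egl-3, the proprotein convertase that cleaves neuropeptide precursors, with 11.27, 11.48 and 11.74 in N2, 10.06, 9.66 and 10.16 in overactivation and 10.23, 10.82 and 10.44 in underactivation (-1.27 ± 0.20 SE, adjusted p = 0.0272). pgal-1, an enzyme that amidates neuropeptides, read 9.56, 9.44 and 9.79 in N2 and 6.21 to 8.62 in the tagged arrays (-2.21, adjusted p = 0.0456). In a group of 7 genes of neuropeptide processing and release assembled after the values were seen, 6 lay below N2 and the median was -1.26. egl-21, a carboxypeptidase, and sbt-1, a chaperone of egl-3, were at -2.06 and -1.26 (adjusted p = 0.0700 and 0.0663).

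The peptides themselves leaned the same way. Of 25 FMRFamide-like peptide genes, 21 lay below N2, the median was -0.44 (-0.29 without N2 replicate 4) and flp-19 passed, at 11.40, 11.27 and 11.37 in N2, 10.37, 9.41 and 9.55 in overactivation and 10.32, 10.63 and 10.58 in underactivation (-1.20, adjusted p = 0.0413). A second flp-19 probe set lay at -0.47 (limma adjusted p = 0.570). Of 58 other neuropeptide-like genes, 36 lay below N2, the median was -0.37 (-0.24 without N2 replicate 4) and nlp-21 passed (-1.14, adjusted p = 0.0424). Of 102 neurotransmitter-gated receptor genes, only glr-1 passed, and the median of -0.05 was near that of all genes. glr-1, an AMPA-type glutamate receptor of command interneurons, read 8.38, 8.17 and 8.54 in N2, 5.86, 6.14 and 6.16 in overactivation and 7.60, 7.56 and 7.27 in underactivation, so all 3 groups were apart. Its difference of -1.60 ± 0.16 (SE, adjusted p = 0.0204) passed in 8 of the 9 fits that left out 1 array, and a second probe set passed at -1.66. The fall was -2.31 in overactivation and -0.89 in underactivation, a gap between the strains of unadjusted p = 3.93e-05 that did not pass after adjustment. The 1276 chemoreceptor genes, mostly of sensory neurons, had a median of 0.05 and 0 calls in limma (17 higher and 13 lower without adjustment).

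Some ion channels of nerve and muscle were lower, and the following group and genes were again put together after the values were seen. Of 9 measured subunits of voltage-gated calcium channels and of the sodium leak channel, 7 lay below N2 and 4 passed. unc-2, the calcium channel of synapses, read 8.64, 9.54 and 8.95 in N2, 5.70, 5.37 and 7.42 in overactivation and 6.41, 7.79 and 6.21 in underactivation (-2.56 ± 0.51 SE, adjusted p = 0.0492), but its other 3 probe sets lay at -0.53, -0.29 and 0.09. egl-19, the muscle calcium channel, differed by -1.64 (adjusted p = 0.0272), and the leak channel genes unc-77 and unc-80 by -1.29 and -1.13 (adjusted p = 0.0431 and 0.0456). The potassium channel twk-13 was at -2.18, the TRPM channel gtl-1 at -1.62 and the mechanosensory channel tmc-1 at -1.62. Synaptic genes included cla-1, a giant protein of the active zone, with 9.08, 9.70 and 8.89 in N2 and 6.61 to 7.94 in the tagged arrays (-2.08, adjusted p = 0.0268), and the synaptotagmin snt-2 (-1.05, adjusted p = 0.0375).

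Markers of the gut, pharynx and germ line had few calls. Of 31 germline genes, 28 lay below N2 and 1 passed, with a median of -0.48 and array medians of -0.04, -0.13 and 0.07 in N2 and -0.23 to -0.73 in the tagged strains. The called gene was cbd-1, a chitin-binding protein of the eggshell, with 7.80, 6.52 and 6.61 in N2 and 3.44 to 5.56 in the tagged arrays (-2.55, adjusted p = 0.0285), and the translational repressor gld-1 was at -1.75 (adjusted p = 0.107). Of 26 intestinal genes, 18 lay below N2 and 0 passed in limma (1 higher and 11 lower without adjustment). The intestinal median of -0.86 was the lowest of the cell type lists, yet its array medians were 0.23, -0.20 and 0.05 in N2 and -0.04 to -0.91 in the tagged strains, so underactivation replicate 4 lay among N2. The peptide transporter pept-1 was at -1.69 (adjusted p = 0.0700), and the bright markers mtl-1 and erm-1 at 0.12 and -0.24, with a second erm-1 probe set at -1.17. The GATA factor elt-2 was at 1.13 (adjusted p = 0.355), at 1.89 without N2 replicate 2 and 0.63 without N2 replicate 3, and its second probe set was at -0.32. Pharyngeal genes had a median of -0.11 with 0 of 17 called (3 higher and 5 lower without adjustment), and the bright members tni-4 and myo-1 were at 0.15 and -0.48. Among 11 genes of coelomocytes, excretory canal and glia, 0 passed (1 higher and 1 lower without adjustment), the median was -0.29, and exc-5 and exc-9 were at 1.58 (adjusted p = 0.0769) and 0.26.

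**Figure D3:**
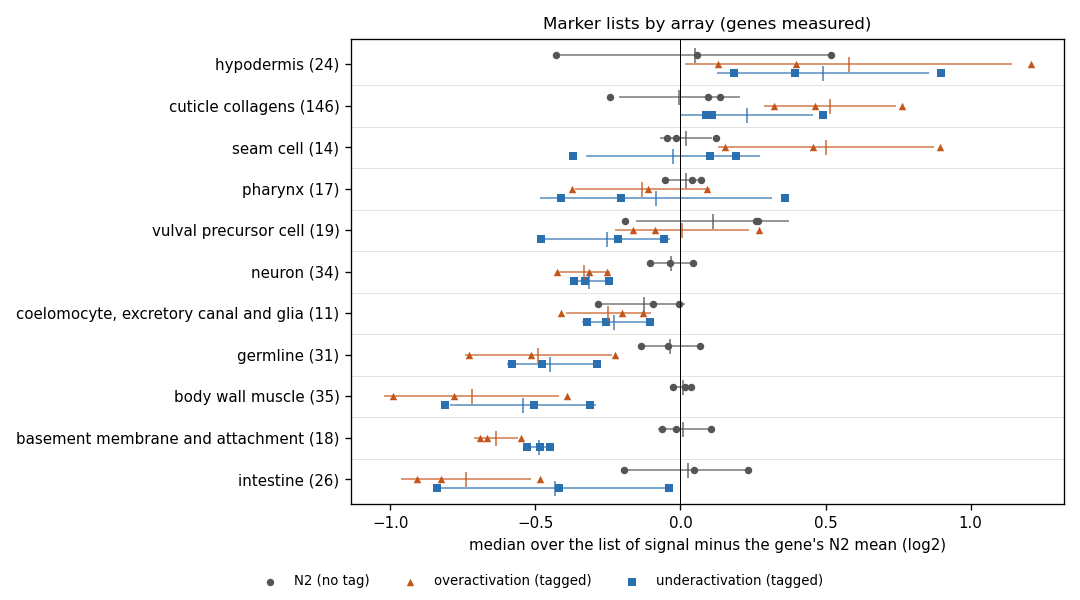
Median over each marker list of the signal minus the gene's own N2 mean (log2), for every array, with the mean and SD of 3 arrays per strain and the number of genes measured in parentheses. Body wall muscle, basement membrane, neuron and germline lists put all 6 tagged arrays below N2, while hypodermis, seam cell and vulval precursor cell lists overlap.

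Most housekeeping lists and large gene families had medians near that of all genes. The 74 cytosolic ribosomal proteins had a median of 0.09, 57 translation factors and tRNA synthetases 0.10, 33 proteasome subunits 0.03, 42 respiratory chain subunits 0.09, 18 vacuolar ATPase subunits -0.14, 40 transthyretin-related genes 0.16 and 23 major sperm proteins 0.12, and 0 genes of these lists passed. Without adjustment, limma gave 1 to 8 higher and 0 to 4 lower genes in each of them. The 16 lysozymes lay lower, at a median of -0.25, -0.63 in overactivation and -0.08 in underactivation, with 0 called, 0 higher and 4 lower without adjustment in limma. Their median was -0.44 without N2 replicate 4 and -0.08 without N2 replicate 2, and the bright members ilys-5 and lys-4 were at -1.03 and -1.04 with no overlap. Histones stood higher, with a median of 0.48 and 29 of 34 above N2, but 0 passed (16 higher and 1 lower without adjustment). Their array medians were 0.38, -0.19 and -0.24 in N2 and 0.33 to 0.52 in the tagged arrays, so N2 replicate 2 read like the tagged strains. The 7 small heat shock and hsp-70 genes had a median of -0.02 with 0 higher and 0 lower with or without adjustment in limma, after a heat shock that all animals had received. Among 11 family lists without a called member, the 21 brightest genes differed by -1.53 to 0.68. Of 180 detoxification enzymes, ugt-63 (2.05) and ugt-66 (1.19) were higher and cyp-13A6 (-1.28) lower. Of 395 F-box and MATH domain genes, fbxa-167 (1.86) and fbxa-182 (0.73) were higher and math-33 (-1.42) lower, and of 220 C-type lectins clec-1 (1.54) was higher and clec-199 (-0.95) lower.

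The tagged strains differed from each other in 1 probe set at the adjusted threshold, that of dod-23, a gene named for regulation downstream of DAF-16. Its signal was 3.44, 3.78 and 3.35 in N2, 6.82, 7.06 and 6.17 in overactivation and 3.40, 3.54 and 3.67 in underactivation. The pooled difference of 1.59 (adjusted p = 0.0228) thus came from overactivation alone, at 3.16 against 0.02 in underactivation. Among the 291 called genes, the strains differed at an unadjusted p of 0.05 for 32 higher and 30 lower genes, against 5.91% of all genes. The difference was larger in overactivation for 136 of the 177 higher genes and 86 of the 114 lower genes. The opposite order occurred in fbxa-182, with 0.32 in overactivation and 1.14 in underactivation. Between the strains, at an unadjusted p of 0.05, 620 probe sets were higher in overactivation and 657 lower.

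Higher and lower genes differed in size. Genomic span, from the first to the last annotated base with introns, had a median of 1376 bp in the higher genes and 5211 bp in the lower genes, against 2185 bp over all 17077 genes with coordinates. Spans over 10000 bp were found for 3 higher genes (1.69%), 30 lower genes (26.3%) and 5.23% of all genes. When genes were ordered by span and divided into 10 classes of equal number, the shortest class (50 to 864 bp) held 48 higher genes and 1 lower gene, and the longest (7086 to 81724 bp) held 6 higher and 45 lower. The median difference went from 0.15 in the shortest class to -0.14 in the longest. Longer genes were also brighter, with a median signal of 4.49 in the shortest class and 6.33 in the longest. Among dim genes (3 equal classes by signal) the medians of the shortest and longest classes were 0.07 and 0.01, among genes of middle signal 0.19 and -0.17, and among bright genes 0.41 and -0.24.

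The relation to span was not the same in every N2 array. The median of the shortest class, relative to the mean of all arrays, was 0.11, 0.02 and -0.13 in N2 replicates 2, 3 and 4 and 0.04 to 0.22 in the tagged arrays, so the groups overlapped. Without N2 replicate 4 the medians of the shortest and longest classes were 0.08 and -0.09. The median span of the lower genes was 1961 bp without underactivation replicate 2 and, with the few calls left, 1961 bp without underactivation replicate 5, and that of the higher genes was then 2151 bp. Without underactivation replicate 4 and N2 replicate 4 together, the lower genes had a median of 3367.5 bp. Over all genes, Pearson's r between log10 span and difference was -0.21, a value across genes, which are not independent replicates. Among the muscle and matrix genes, the 15 with spans over 10000 bp had a median of -0.83. Median spans were 5357 bp for body wall muscle, 9579.5 bp for basement membrane and 4938.5 bp for neuron markers, whose differences were below 0. They were 6059 bp for vulval precursor cell, 4031.5 bp for seam cell and 3538.5 bp for hypodermal markers, with median differences of -0.16, 0.25 and 0.59. The part of span in the list differences was not tested.

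**Figure D4:**
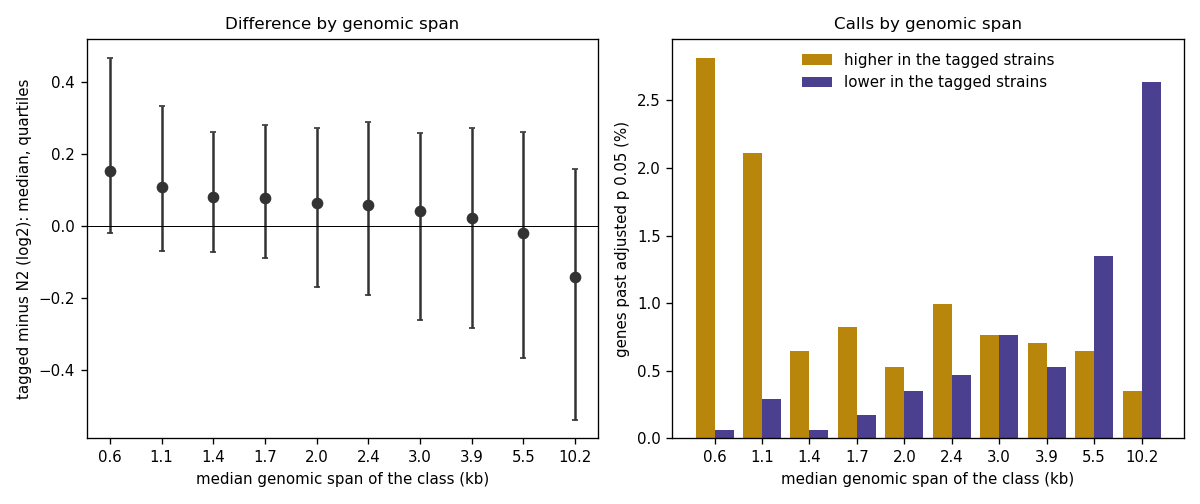
Left, median and quartiles of the difference between tagged strains and N2 (log2) for 10 classes of genes ordered by genomic span, with the median span in kb on the axis. Right, percent of genes in each class past adjusted p 0.05, where higher calls are most frequent among the shortest genes and lower calls among the longest.

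The array's own control probe sets for the ends of 5 transcripts were compared between the groups. In 2 of the 5, ubiquitin and gly14, all tagged arrays stood above N2. None of the 5 passed adjustment in the exact permutation test. With so few arrays, a single control at the smallest possible p could not pass by itself, so this failure does not speak against a difference. For the actin control the 3′ minus 5′ signal was 0.67, 0.80 and 0.91 in N2, 1.88, 2.25 and 1.47 in overactivation and 2.08, 0.90 and 2.35 in underactivation. The tagged mean of 1.82 ± 0.55 (SD, n = 6) was above the N2 mean of 0.79 ± 0.12 (SD, n = 3; exact permutation test, two-sided, p = 0.0357, adjusted over the 5 controls 0.0595), and underactivation replicate 4 again read like N2. For ubiquitin the balance was 5.69 to 6.76 in N2 and 6.945 to 7.498 in the tagged arrays, with no overlap (exact p = 0.0119, adjusted 0.0595, the smallest p that 84 splits allow). For gly14 it was -1.44 to -1.36 in N2 and -1.25 to -0.73 in the tagged arrays (exact p = 0.0238, adjusted 0.0595). Gapdh rose from 2.45 to 3.32 (exact p = 0.0595, adjusted 0.0744), and catalase went from 6.91 to 6.80 (exact p = 0.798). With the actin balance as a covariate, 0 probe sets were higher and 0 lower in limma (579 and 512 at an unadjusted p of 0.05). The probe sets called without it then had median differences of 1.34 and -1.27, against 1.59 and -1.59. The part of end balance in the calls above was not tested.

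**Figure D5:**
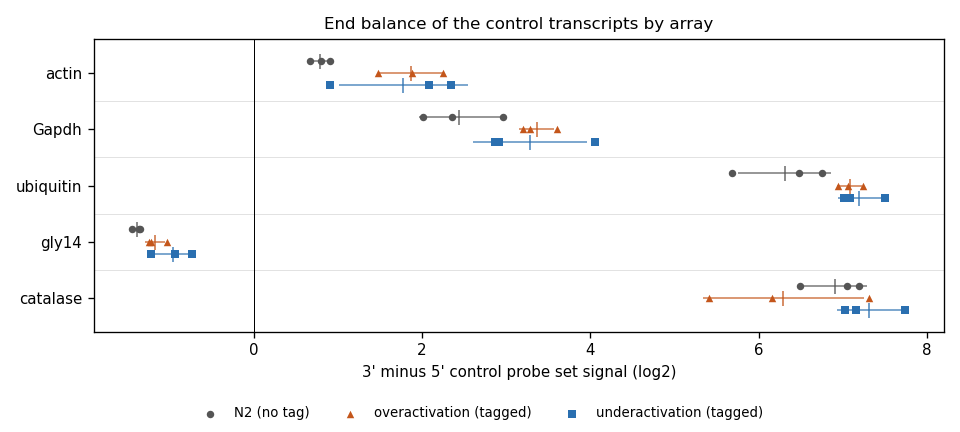
Signal of the 3′ control probe set minus that of the 5′ control probe set (log2) for 5 control transcripts, by array, with the mean and SD of 3 arrays per strain. Ubiquitin and gly14 separate all tagged arrays from N2, and for actin underactivation replicate 4 lies within the N2 range.

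Position on the chromosomes gave smaller contrasts. Higher genes made up 0.862% of genes on chromosome II to 1.78% on III (40 of 2252), and lower genes 0.464% on II to 1.02% on III. Of the higher and lower genes, 68.4% and 69.3% had another protein-coding gene within 500 bp on either strand, against 64.5% of all genes.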

How the data were processed

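The data are mRNA signals from 9 arrays (Affymetrix GeneChip for C. elegans), 3 each of overactivation, underactivation and N2, grouped by the sample titles. The deposited log2 values were made by the authors with Robust Multichip Average in Partek, of unstated version, and no further scaling was applied. The number of arrays limits the precision. Arrays of deIs10; scm::gfp were not analysed here.

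In limma 3.58.1 (R 4.3.3), a model of 3 group means gave the contrast of both tagged strains, weighted equally, minus N2, with eBayes and Benjamini-Hochberg adjustment at 0.05 over 22548 probe sets. The fit was tested on simulated data with known changes. Those data had independent noise and the same shift in all tagged arrays. They thus do not cover outlying arrays, differences between strains, end balance or batches. Of the probe sets, 20766 had 1 gene, 887 several and 895 none in the array annotation, and 17077 of 17118 genes matched RefSeq (WBcel235), which gave names and spans. Strand is not in that table, and protein length and promoter motifs were not used here.

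Genes are named by rule: the 15 largest non-overlapping calls in each direction, all transgene genes, up to 4 called members of each of 32 lists or the 2 brightest where none was called, and genes differing between the tagged strains. Others are named after their values were seen. The members, lists and rules were chosen with earlier results of these data known. Alternatives covered normalization, centring, omission of the dimmest 0.333 of probe sets, moderation, strain term, replicate number as a block, array weights, end balance, threshold, probe set choice and leaving out arrays. Deviations of the 5 same-numbered pairs of arrays correlated at -0.09 to 0.23, and those of the other 22 pairs at -0.20 to 0.21. With so few pairs, these values cannot settle whether a replicate number marks a shared batch.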

Additional observations from a re-analysis of the deposited data

Results flagged for a closer look

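dod-23 was the single gene in which the difference from N2 differed between the strains at the adjusted threshold, with overactivation 3.15 above underactivation in limma and all 3 overactivation arrays above all other arrays. The control probe sets lie outside the comparison of genes, and in 2 of the 5 the balance of ends in all 6 tagged arrays was above all 3 N2 arrays. The 3′ minus 5′ signal was 0.832 higher in the tagged strains for ubiquitin and 0.321 higher for gly14. Neither passed adjustment over the 5 controls in the exact permutation test, which a single control could not do by itself with so few arrays.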

How the results depend on the processing

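Counts of 201 higher and 188 lower probe sets became 0 and 2 without moderation (1690 and 1637 at an unadjusted p of 0.05), 0 and 0 with the replicate number as a fixed block (1593 and 1901), 0 and 0 with the actin balance as a covariate, 89 and 88 without underactivation replicate 4 and N2 replicate 4 together, 287 and 275 without the dimmest probe sets, 270 and 265 with the replicate number as a random block, and 1271 and 1380 by a fold of 1.5 with unmoderated P of 0.05. Leaving out 1 array gave 0 to 331 higher and 2 to 375 lower. The other settings gave 159 to 266 higher and 134 to 207 lower. All fitted members of the 201 and 188 kept their sign in every setting, which selection from the same arrays favors. Of the 91 named called genes, 91 passed with each array centred on its median, 89 after quantile normalization, 80 with the mean over a gene's probe sets and 73 with array weights, but 0 passed without moderation, with the fixed replicate block or with the actin covariate. Of the same 91, 1 passed without underactivation replicate 2, 5 without underactivation replicate 5, 9 without N2 replicate 3 and 9 without overactivation replicate 3, 32 without underactivation replicate 4 and N2 replicate 4 together, and 35 to 88 without 1 of the other arrays.

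List medians moved beyond the spread between arrays for germline (-0.78) and coelomocyte, excretory canal and glia genes (-0.046) without the dimmest probe sets, for body wall muscle with the replicate block (-0.77) and the mean over probe sets (-0.78), and for hypodermis (0.15), pharynx (-0.57) and intestine (-0.38) with the actin covariate. Without underactivation replicate 4 and N2 replicate 4 together, neuron was at -0.38 and coelomocyte, excretory canal and glia at -0.12. Leaving out 1 array gave 0.053 to 0.32 for seam cell, -0.41 to -0.22 for neuron and -0.39 to -0.12 for coelomocyte, excretory canal and glia genes.

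Genes near 0 changed sign in some settings. With the replicate block, tni-4 was at -0.28 and let-60 at -0.030. With the actin covariate, tni-4 was at -0.19, let-60 -0.28, lin-29 -0.34, pab-1 0.13 and hsp-16.2 0.43. Without underactivation replicate 4 and N2 replicate 4 together, exc-9 was at -0.098 and let-60 at -0.080, and as the mean over probe sets let-60 was at -0.68. Leaving out 1 array gave -0.25 to 0.35 for mtl-1, -0.16 to 0.34 for tni-4, -0.083 to 0.56 for exc-9, -0.17 to 0.15 for let-60, -0.14 to 0.15 for lin-29, -0.84 to 0.073 for hsp-16.2 and -0.32 to 0.17 for the catalase end balance. The causes were not tested.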
